A study of Mus musculus with 18 samples.

Results

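The aryl hydrocarbon receptor (AhR) and 6 genes of its pathway were followed in bone marrow-derived macrophages (BMDMs) exposed to monosodium urate (MSU) crystals and to apigenin. The 7 genes were taken by name from the 55450 genes of the deposited expression table, each matching 1 entry. They were Ahr, Arnt, Ahrr, Tiparp, Cyp1a1, Cyp1b1 and Serpinb2. Of these, 6 passed the filter on low values, an FPKM (fragment count corrected for transcript length and depth) of 1 or more in 3 or more libraries, and Cyp1a1 did not. The 6 were among 12025 genes tested.

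AhR is a ligand-activated transcription factor that waits in the cytosol bound to heat shock protein 90 chaperones. Its ligands include dioxins, some plant flavonoids and metabolites of tryptophan. Whether apigenin acts as an activating ligand was not tested here. On binding an activating ligand, AhR enters the nucleus, pairs with ARNT and binds DNA elements with the core GCGTG. Its classical targets encode cytochrome P450 enzymes, and it also induces its own brakes, the repressor AHRR and the ADP-ribosyltransferase TIPARP, which consumes NAD+. In macrophages the receptor is known for tuning inflammatory gene expression.

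The BMDMs came from wild-type (WT) and CD38 knockout (CD38KO) mice, both on a C57BL6/J background. CD38 is an NAD+-consuming enzyme that apigenin, a plant flavone, inhibits. Marrow cells had been grown for 7 days in medium with 20% L929-conditioned medium and 10% serum, given GM-CSF (20 ng/ml, 24 h) as priming, and then treated for 6 h in 1% serum. There were 6 groups of 3 libraries: WT non-treated, WT + MSU (0.2 mg/ml), WT + apigenin (25 µM) and WT + MSU + apigenin, then CD38KO without treatment (CD38KO non-treated) and with MSU (CD38KO + MSU). All groups shared the GM-CSF priming, no CD38KO library received apigenin, and the mice were of either sex. The titles and the treatment tags of the 6 apigenin libraries disagree on which had MSU. The titles were followed, and comparisons of apigenin averaged over MSU do not depend on this choice.

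Total counts ranged from 51058336 to 83209648 per library. Cd38 averaged 21.1 CPM (counts scaled to a common library size) in WT non-treated and 0.5003 in CD38KO non-treated, and 49.2 and 0.951 under MSU. All 7 macrophage markers were detected in every library. Summed fibroblast markers (6 genes) lay between 574 and 6704 CPM in the WT libraries and between 82.5 and 316 CPM in the CD38KO libraries. Summed neutrophil markers (7 genes) were 146 to 293 CPM in replicates 1 and 2 of the WT groups, against 8.22 to 24.4 CPM in replicate 3 of those groups and 8.56 to 22.9 CPM in CD38KO, and the defining marker Ly6g was at 0 in all but 1 library. Averaged over MSU, apigenin called 2 of 6 fibroblast and 3 of 7 macrophage markers higher, both tested dendritic cell markers lower, and 2 of 4 tested endothelial markers higher and 1 lower. Of all genes tested, 43.8% were called in that comparison, 17.7% higher and 26.1% lower. Results that rest on WT against CD38KO are therefore given beside these markers. A lower level in a bulk library cannot tell fewer expressing cells from less RNA per cell.

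The DNA element of the receptor was looked for in the 250 bases before the annotated start of each gene (RefSeq, GRCm38.p6). These starts can differ from the gene positions given below, which are from GENCODE M21. The window of Cyp1a1 (chr9:57697363-57697612) lies inside its GENCODE gene. That of Tiparp (chr3:65528197-65528446) runs past its GENCODE start. The search used the core GCGTG on both strands, and 6 of the 7 genes had an entry, Serpinb2 with 2 start sites. The window of Ahrr is shown whole because it held 3 copies, the most among these genes (chr13:74292332-74292581, minus strand, with the copies in capitals).

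Ahrr: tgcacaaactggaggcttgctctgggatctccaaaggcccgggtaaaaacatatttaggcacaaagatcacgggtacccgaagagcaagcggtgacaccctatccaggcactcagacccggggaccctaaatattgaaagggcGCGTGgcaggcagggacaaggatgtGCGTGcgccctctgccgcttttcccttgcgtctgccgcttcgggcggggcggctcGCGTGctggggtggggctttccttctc

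Of 32851 windows of this length, 28.2% held at least 1 copy and 2.77% held at least 3. The copy of Ahrr nearest to the start, 27 bases before it, also matched the longer form TNGCGTG, which 4.1% of the windows held. Arnt, Cyp1a1, Cyp1b1 and Tiparp held 1 copy each. Neither window of Serpinb2 held one. The 35 bases around those 4 single copies are printed below so that the flanks can be compared (Arnt at chr3:95434346-95434380, Cyp1a1 at chr9:57697544-57697578, Cyp1b1 at chr17:79715118-79715152 and Tiparp at chr3:65528262-65528296). Capitals mark the core, or its complement CACGC where the copy lay on the other strand.

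Arnt: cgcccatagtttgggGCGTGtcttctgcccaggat
Cyp1a1: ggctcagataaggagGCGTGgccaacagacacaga
Cyp1b1: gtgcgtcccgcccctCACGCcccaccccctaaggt
Tiparp: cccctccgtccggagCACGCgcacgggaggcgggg

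A match is a match of letters and not a binding site, and its absence from these windows says nothing about the factor.

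In WT non-treated BMDMs the length-corrected levels of the 7 genes spanned a wide range. Cyp1b1 was highest at 45.9 FPKM, followed by Tiparp at 17.1 and Serpinb2 at 16.2, Ahrr at 6.24, Arnt at 3.45, Ahr at 1.43 and Cyp1a1 at 0.290 (means of 3). All further levels are CPM normalized with TMM, a scaling that allows for a few abundant genes, and are compared within a gene. Changes were tested with edgeR's quasi-likelihood test. A gene was called where the log2 fold change (log2FC) was 1 or more in size and the p adjusted by Benjamini-Hochberg over all 12025 genes was below 0.05. Non-overlap of the libraries compared was frequent over all genes tested. With apigenin on average 24.7% were lower and 19% higher in this way. Without MSU it was 32% lower and 27% higher, and under MSU 36% lower and 29.7% higher. With MSU 14.8% were higher and 16.6% lower in WT, and 13.4% higher and 13% lower in CD38KO. In CD38KO against WT 11.4% were lower and 11.4% higher without treatment, and 12.4% lower and 15.3% higher under MSU.

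**Figure D1:**
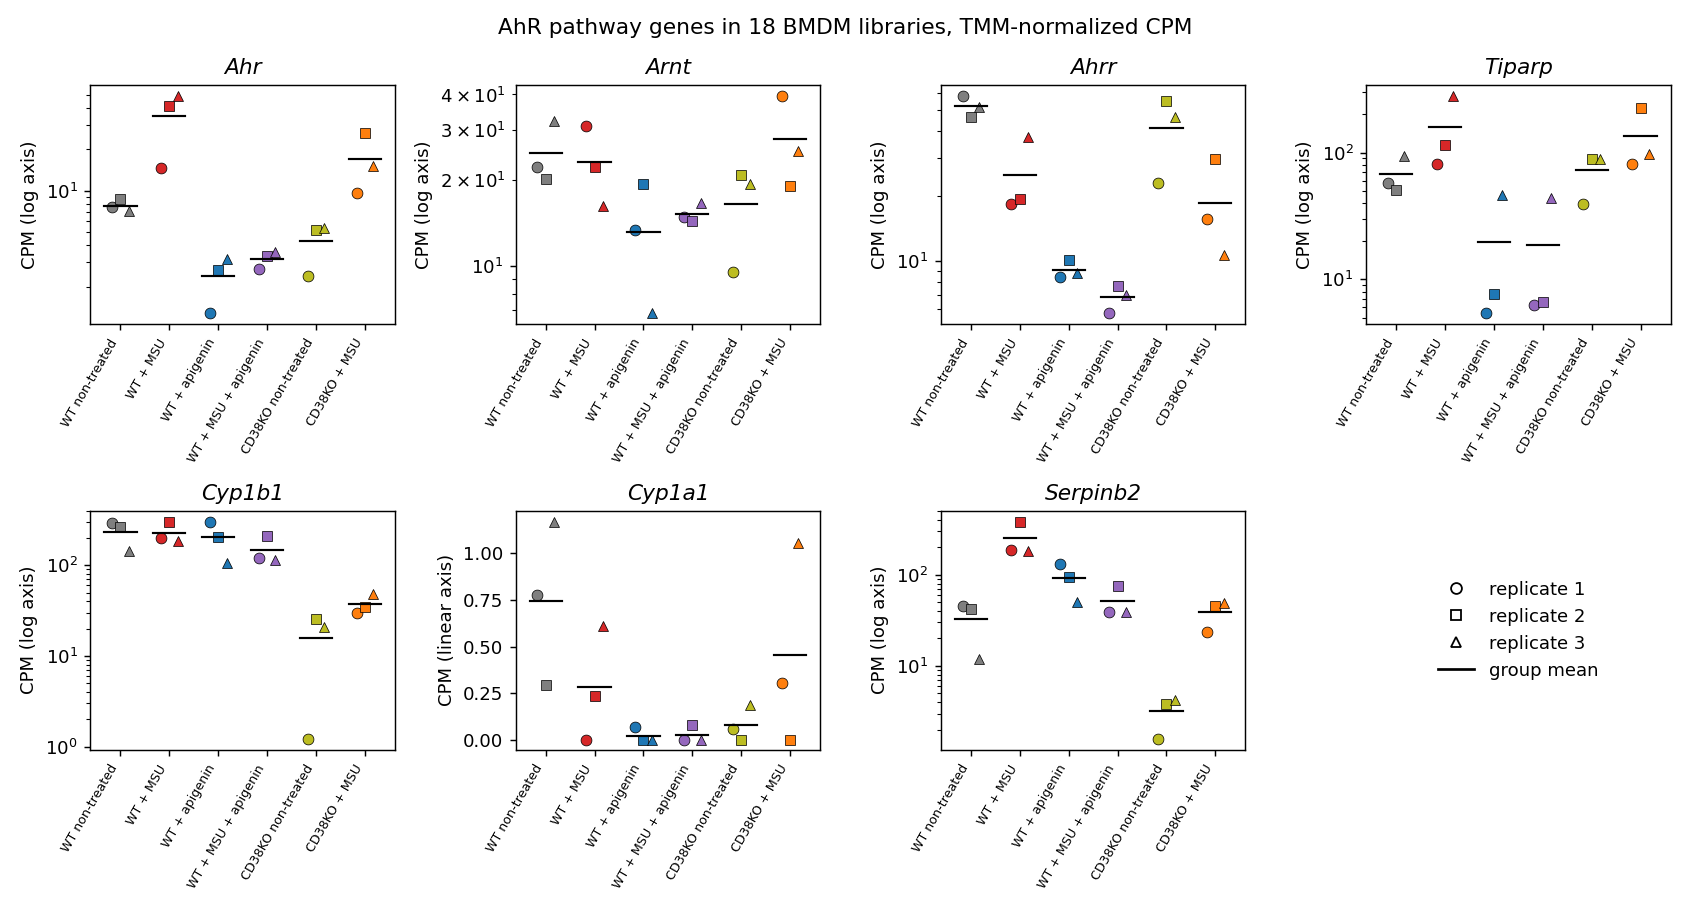
Each panel plots 1 gene, with CPM per library on the vertical axis (log axis except for Cyp1a1) and the 6 groups along the horizontal axis. Points are libraries, shaped by replicate number, and lines are group means. Ahr and Ahrr are lower in all 6 apigenin libraries than in the 6 WT libraries without apigenin, and Cyp1b1 and Serpinb2 are lower in CD38KO non-treated than in WT non-treated. Of all genes tested, 24.7% and 11.4% were lower without overlap in these 2 comparisons.

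Apigenin lowered the receptor and both of its feedback genes in WT BMDMs, whereas Arnt, Cyp1b1 and Serpinb2 were not called when averaged over MSU. In that average, over 6 apigenin libraries and 6 without it, Ahr fell 5.99-fold, Ahrr 4.59-fold and Tiparp 5.37-fold. The value of Tiparp, -2.42 on the log2 scale, was -3.22 without replicate 3 of WT + apigenin and -3.20 without replicate 3 of WT + MSU + apigenin. Thus 3 of the 6 tested genes were called lower and 0 higher. Of all genes tested 43.8% were called, 26.1% lower and 17.7% higher, so that calls were frequent in general. The 6 apigenin libraries also stood apart in composition, with 23.5% to 29.7% of counts in their 20 most abundant genes and TMM factors of 0.666 to 0.837, against 14.45% to 17.3% and 1.09 to 1.32 in the other WT libraries, and the part of this in the changes was not tested. The median log2FC of the 6 was -1.48, against -0.04 over all genes tested. Under library totals in place of TMM, the median of all genes in this comparison shifted by -0.70 and 4.13% of calls were higher instead of 40.5%. Ahr, Ahrr and Tiparp were called lower under all 31 alternative settings of this comparison.

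Ahr (GRCm38 chr12:35497974-35535038, minus strand) encodes the receptor. Its level was 7.56, 8.68 and 7.12 CPM in the WT non-treated replicates 1 to 3. It was 14.6, 41.3 and 49.0 CPM in WT + MSU. With apigenin it was 1.28, 2.64 and 3.21 CPM, and with MSU and apigenin 2.68, 3.34 and 3.56 CPM. The apigenin libraries thus lay below every WT library without apigenin, and the MSU libraries above every non-treated one. Over all genes tested, 24.7% were lower without overlap with apigenin on average and 14.8% higher with MSU in WT. Apigenin gave a log2FC of -1.71 ± 0.48 (SE, n = 3 per group) without MSU and of -3.45 ± 0.51 under MSU, with edgeR adjusted p of 0.0082 and 5.26e-05. MSU crystals raised Ahr 4.49-fold in WT (log2FC 2.17 ± 0.48, edgeR adjusted p = 0.0163).

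In CD38KO, Ahr stood at 2.40, 5.13 and 5.31 CPM without treatment and at 9.54, 26.2 and 15.04 CPM with MSU. Here too every MSU library was above every non-treated one, with a log2FC of 1.98 ± 0.48 (edgeR adjusted p = 0.0374). The rise did not differ detectably between genotypes. The interaction of MSU and CD38KO was -0.18 on the log2 scale (95% interval -1.58 to 1.21). Both calls for MSU lay near the threshold: in WT the adjusted p was 0.0558 to 0.0637 without replicate 2 or 3 of WT + MSU or any 1 of the WT non-treated libraries. In CD38KO it was called in 18 of 30 settings, and it was lost without replicate 2 or 3 of CD38KO + MSU, any 1 of the CD38KO non-treated libraries, or replicate 1 or 2 of WT non-treated (edgeR adjusted p up to 0.112).

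With apigenin present, MSU moved Ahr by 0.43 ± 0.47 on the log2 scale, which was not called (edgeR adjusted p = 1). The difference between the MSU effects with and without apigenin was -1.74 ± 0.66 and was not called either (edgeR adjusted p = 0.233). Comparing CD38KO with WT, Ahr gave a log2FC of -0.86 ± 0.47 without treatment and -1.05 ± 0.47 under MSU (edgeR adjusted p = 0.463 and 0.222). Ordered by mean, Ahr was highest in WT + MSU and next in CD38KO + MSU, whose libraries overlapped. WT non-treated and CD38KO non-treated followed, and both apigenin groups, which overlapped each other, were lowest. The range of CD38KO non-treated, 2.40 to 5.31 CPM, overlapped both apigenin groups.

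Arnt (chr3:95434388-95497240, plus strand) encodes the partner with which AhR binds DNA. Its level was 22.2, 20.2 and 32.2 CPM in WT non-treated and 30.9, 22.2 and 16.2 CPM in WT + MSU. It was 13.4, 19.4 and 6.85 CPM with apigenin, and 14.8, 14.4 and 16.6 CPM with both. The average apigenin difference of -0.75 ± 0.28 had an edgeR adjusted p of 0.025 but did not reach the fold threshold. Its size depended on the scaling, since with library totals it was -1.44 (edgeR adjusted p = 0.000681) and was called. Arnt spanned 9.51 to 20.8 CPM in CD38KO non-treated and 19.2 to 39.6 CPM in CD38KO + MSU. It was called in none of the comparisons of MSU or of genotype.

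Ahrr (chr13:74211118-74292331, minus strand) encodes the repressor that competes with AhR for ARNT. It stood at 58.4, 46.8 and 52.1 CPM in WT non-treated. With apigenin the values were 8.49, 10.1 and 8.84 CPM, and with MSU and apigenin 5.76, 7.70 and 7.02 CPM. No library of either apigenin group reached the lowest WT library without apigenin, 18.4 CPM. The log2FC was -2.52 ± 0.39 without MSU (edgeR adjusted p = 0.000136) and -1.88 ± 0.39 under MSU (edgeR adjusted p = 0.000799).

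MSU gave Ahrr and Ahr values of opposite sign. In WT + MSU, Ahrr was at 18.4, 19.4 and 37.6 CPM, all below the non-treated libraries, with a log2FC of -1.06 ± 0.38 that was not called (edgeR adjusted p = 0.11). It was called with limma on log2(FPKM + 0.5) (limma adjusted p = 0.0407) and, in a fit chosen after seeing the data, with a replicate block in the 4 WT groups alone (-1.11, edgeR adjusted p = 0.0293). The numbers did not pair the libraries of that comparison by the criterion used. In CD38KO it was 23.0, 55.2 and 46.6 CPM without treatment and 15.8, 29.7 and 10.7 CPM with MSU. Those groups overlapped, with a log2FC of -1.15 ± 0.38 (edgeR adjusted p = 0.116). It was called in 2 of 30 settings. These were without replicate 2 of CD38KO + MSU (-1.65, edgeR adjusted p = 0.0359) and without replicate 1 of CD38KO non-treated (-1.44, edgeR adjusted p = 0.0496). The genotype differences of -0.33 and -0.43 were not called.

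Tiparp (chr3:65528410-65555518, plus strand) encodes a mono-ADP-ribosyltransferase that marks AhR for degradation. In WT non-treated its level was 57.1, 51.0 and 93.6 CPM. It was 5.41, 7.64 and 45.8 CPM with apigenin and 6.33, 6.58 and 43.5 CPM with MSU and apigenin. Replicate 3 was the highest in both apigenin groups, several-fold above the other replicates, yet below every WT library without apigenin. Fibroblast markers summed to 574 to 2643 CPM in WT non-treated and 1526 to 6116 CPM in WT + apigenin, with replicate 3 lowest in each, and their part in the values of Tiparp was not tested. Without MSU the log2FC of -1.78 ± 0.87 was not called (edgeR adjusted p = 0.0997). With the replicate block it was called at -2.31 ± 0.63 (edgeR adjusted p = 0.00747), as it was without WT + apigenin replicate 3, at -3.37 (edgeR adjusted p = 0.00848). Same-number libraries of that comparison correlated, but replicates 1 and 2 were not told apart by number. Under MSU the log2FC was -3.07 ± 0.91 (edgeR adjusted p = 0.0095). It was called without any 1 library, but it was -4.62 without replicate 3 of WT + MSU + apigenin and -2.37 without replicate 3 of WT + MSU.

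With MSU in WT, Tiparp stood at 80.5, 114 and 280.0 CPM, and these libraries overlapped the non-treated ones. The log2FC of 1.23 ± 0.85 was not called (edgeR adjusted p = 0.478). CD38KO libraries had 39.0, 89.0 and 88.8 CPM without treatment and 81.1, 224 and 97.8 CPM with MSU, overlapping the WT libraries of the same treatment. The genotype log2FC was 0.10 without treatment and -0.24 under MSU, and intervals of -1.69 to 1.89 and -2.03 to 1.55 show how wide these estimates are.

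**Figure D2:**
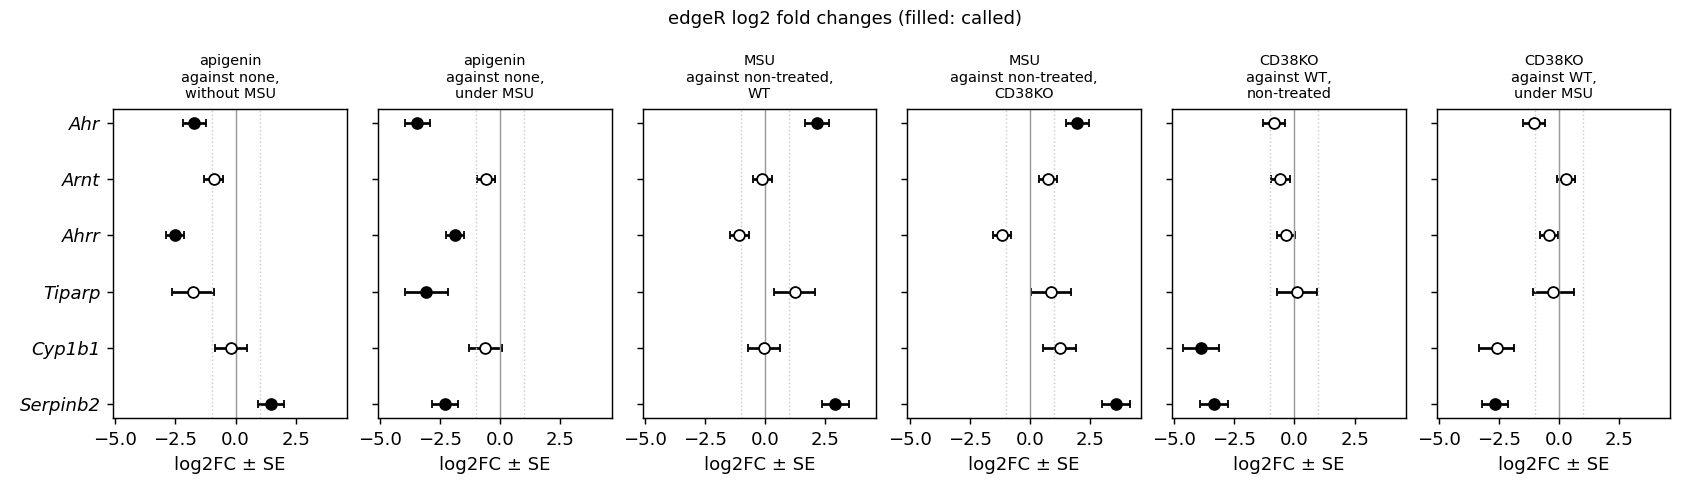
Each panel is 1 comparison, with the edgeR log2FC on the horizontal axis and the 6 tested genes down the vertical axis. Points are estimates with bars of 1 SE, filled where called, and dotted lines mark a log2FC of 1 in size. Apigenin moved Ahr and Ahrr down in both panels, MSU moved Ahr and Serpinb2 up in both genotypes, and Serpinb2 alone changed sign with MSU in the apigenin panels, from 1.48 to -2.30.

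Cyp1b1 (chr17:79701537-79715061, minus strand) encodes a cytochrome P450 that oxidises hydrocarbons and oestrogens and is a classical AhR target. In WT it was called with neither treatment. The values were 293, 266 and 145 CPM without treatment and 198, 304 and 185 CPM with MSU. They were 301, 207 and 107 CPM with apigenin and 120, 212 and 114 CPM with both. The 4 WT groups overlapped throughout, and the average apigenin log2FC was -0.41 (95% interval -1.43 to 0.62, edgeR adjusted p = 0.463). It was called in 1 of 31 settings, limma on log2(FPKM + 0.5), at -1.10 (limma adjusted p = 0.0389). The lowest value over the settings was -1.12. Fibroblast markers had a median log2FC of 1.10 in this comparison, and their part in the values of Cyp1b1 was not tested.

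The knockout libraries were where Cyp1b1 stood apart. CD38KO non-treated held 1.22, 25.4 and 21.0 CPM, all far below the lowest WT non-treated library, with a log2FC of -3.89 ± 0.76 (edgeR adjusted p = 0.0061). In a fit of these 2 groups alone it was not called (-3.95, edgeR adjusted p = 0.106). Under MSU the CD38KO libraries held 29.9, 34.7 and 48.0 CPM and again did not overlap WT + MSU. That log2FC of -2.61 ± 0.72 was just above the adjusted p threshold (0.0536 in edgeR, against 0.00448 without CD38KO non-treated replicate 1, which enters through the shared spread). Of the 6 tested genes, 2 were called lower without treatment and 0 higher (4.32% of all genes called, 3.96% lower and 0.366% higher). Under MSU 1 was called lower (3.37% of all genes called, 2.65% lower and 0.715% higher), and the medians of the 6 were -0.72 and -0.74 against 0.04 and 0.03 over all genes.

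Serpinb2 (chr1:107511423-107535478, plus strand) encodes plasminogen activator inhibitor 2, reported among the genes that dioxin induces through AhR. It was the other gene called lower in CD38KO. The level was 45.4, 41.6 and 12.03 CPM in WT non-treated and 1.58, 3.84 and 4.23 CPM in CD38KO non-treated. The 2 groups did not overlap, and the log2FC was -3.36 ± 0.58 (edgeR adjusted p = 0.00289). Under MSU the levels were 188, 383 and 181 CPM in WT and 23.3, 45.0 and 49.6 CPM in CD38KO, with a log2FC of -2.67 ± 0.56 (edgeR adjusted p = 0.0189). The call under MSU was lost without replicate 1 of CD38KO + MSU (edgeR adjusted p = 0.109), without replicate 2 of WT + MSU (0.0954) and when only these 2 groups were fitted (0.0612).

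Markers of other cell types moved with genotype beside both genes. All 6 fibroblast markers were called lower in CD38KO non-treated and 4 of 6 in CD38KO + MSU, with median log2FC of -4.00 and -2.76. Over all genes 3.96% and 2.65% were called lower. Their summed level was 574 to 2643 CPM in WT non-treated against 82.5 to 162 CPM in CD38KO non-treated, and 649 to 3827 CPM in WT + MSU against 149 to 316 CPM in CD38KO + MSU. Lum was at 0 in CD38KO non-treated replicates 2 and 3, where the other 5 fibroblast markers were detected. Endothelial markers (5 genes) summed to 12.9 to 46.9 CPM in WT non-treated against 3.28 to 5.52 CPM in CD38KO non-treated, and to 30.1 to 62.2 CPM in WT + MSU against 6.56 to 14.7 CPM in CD38KO + MSU. Of 4 tested, 2 were called lower without treatment and 0 under MSU. Neutrophil markers had median log2FC of -4.60 without treatment and -3.87 under MSU, with 0 of 6 called. Across the 18 libraries, which share groups and preparation, the log2 level of Cyp1b1 had a Pearson r of 0.834 with the log2 summed fibroblast markers and Serpinb2 one of 0.713. Over the 12 WT libraries alone these were 0.378 and 0.278, and with group means removed over all 18 they were 0.537 and 0.802. Tiparp had an r of -0.651 over 18 libraries, -0.822 over the WT libraries and -0.706 with group means removed. With the summed neutrophil markers over the WT libraries, r was 0.665 for Cyp1b1, 0.471 for Serpinb2 and -0.524 for Tiparp. With replicate 3 as the only library of each WT group, the genotype log2FC without treatment was -3.19 for Cyp1b1 and -1.90 for Serpinb2. The spread then came from the CD38KO libraries alone, and 70 of all genes were called against 520, so that a missing call there says nothing about these genes. The part of these cells in the differences was not tested.

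**Figure D3:**
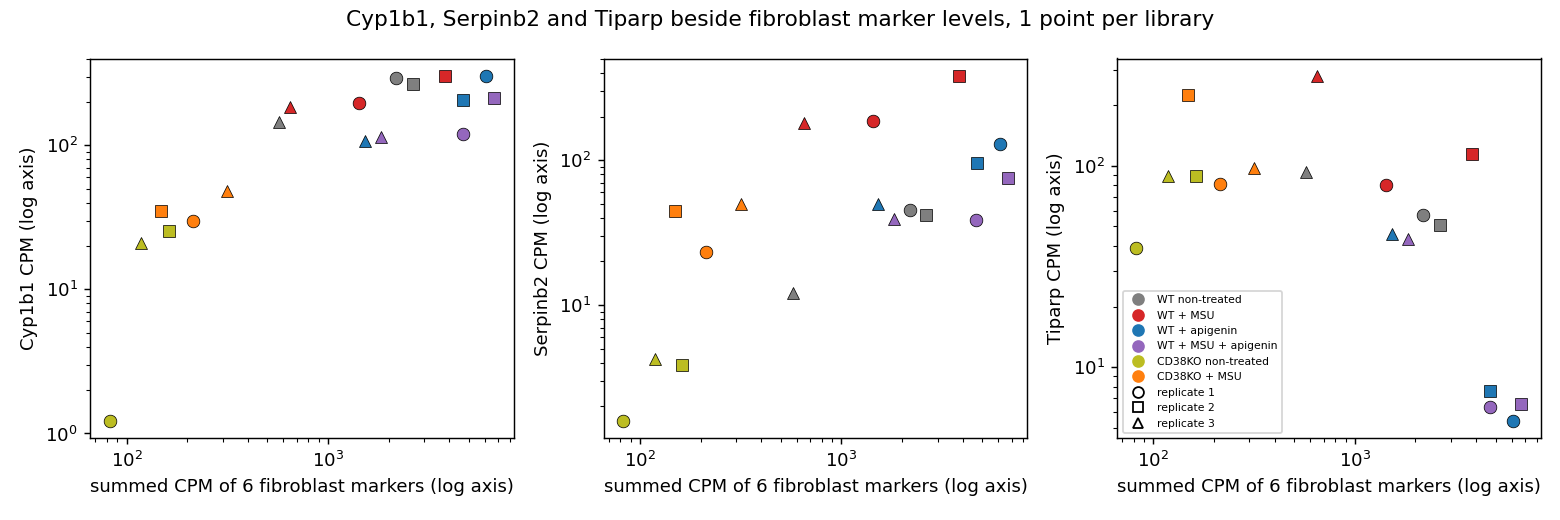
Each point is 1 of the 18 libraries, placed by the summed CPM of 6 fibroblast markers on the horizontal log axis and by the CPM of Cyp1b1, Serpinb2 or Tiparp on the vertical log axis. Colours are groups and shapes are replicate numbers. CD38KO libraries lie at the left with 82.5 to 316 CPM of markers and at most 48.0 CPM of Cyp1b1, and WT libraries lie to the right with at least 107 CPM of Cyp1b1.

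Serpinb2 also had the largest response to MSU of the 6 tested genes. It rose 7.59-fold in WT (log2FC 2.92 ± 0.56, edgeR adjusted p = 0.00736) and 12.2-fold in CD38KO (log2FC 3.61 ± 0.58, edgeR adjusted p = 0.00426), with no overlap of libraries in either. In CD38KO, 2 of 6 fibroblast markers were also called higher with MSU (median log2FC 1.78, summed 82.5 to 162 CPM without and 149 to 316 CPM with MSU), and their part in the rise was not tested. With Ahr, it made 2 of the 6 tested genes called higher and 0 lower in each genotype. In WT 3.58% of all genes were called, 2.03% higher and 1.55% lower, and in CD38KO 2% were called, 1.52% higher and 0.482% lower. Of the calls in WT, 56.7% were higher, or 46.1% with library totals. The median log2FC of the 6 was 0.60 in WT and 1.07 in CD38KO, against -0.03 and -0.01 over all genes. The interaction of MSU and CD38KO for Serpinb2 was 0.68 (95% interval -0.91 to 2.27). That interaction called 0 of the 6 and, in edgeR, 0% of all genes, with 3.55% at an unadjusted p under 0.05 and 20 genes called by DESeq2.

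The apigenin difference of Serpinb2 had opposite signs with and without MSU. Without MSU the apigenin libraries held 130, 95.5 and 50.1 CPM, each above all non-treated libraries, with a log2FC of 1.48 ± 0.53 (edgeR adjusted p = 0.0317). Under MSU they held 38.8, 75.3 and 39.1 CPM, each below all MSU libraries, with a log2FC of -2.30 ± 0.55 (edgeR adjusted p = 0.00246). The difference between these effects was -3.77 ± 0.77 (edgeR adjusted p = 0.0278), the only call among the 6 in that interaction, where 1.05% of all genes were called, 0.69% lower and 0.358% higher. Both the rise without MSU and the interaction depended on the titles. With the treatment tags they were 0.63 (edgeR adjusted p = 0.33) and -2.07 (edgeR adjusted p = 0.184). The rise was called in 22 of 31 settings and was also lost with library totals, at 0.80 (edgeR adjusted p = 0.269), and without WT + apigenin replicate 1 or 2 or replicate 3 of WT non-treated (edgeR adjusted p = 0.0613 to 0.123). The interaction was called in 24 of 31 settings. It was lost without replicate 1 of either apigenin group or replicate 2 of either WT group without apigenin (edgeR adjusted p = 0.0546 to 0.077).

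Counted by apigenin comparison, 1 of the 6 was called higher and 2 lower without MSU, where 35.2% of all genes were called, 13.1% higher and 22.2% lower. Under MSU 4 were called lower and 0 higher, where 43.9% were called, 18% higher and 25.8% lower. With library totals the share of calls that were higher went from 37.1% to 2.75% without MSU and from 41.1% to 6.66% under MSU. Within apigenin-treated WT cells, MSU called 0 of the 6 and 0.0582% of all genes (0.0166% higher and 0.0416% lower), with 6.18% of genes at an unadjusted p under 0.05 and 99 genes called by DESeq2. The values of the 6 in that comparison ran from -0.85 (Serpinb2) to 0.43 (Ahr) in log2FC.

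Cyp1a1 (chr9:57687928-57703824, plus strand), the most studied AhR target, was close to the detection limit and was not tested. Its raw counts were 64, 29 and 100 in WT non-treated and 0, 22 and 54 in WT + MSU. With apigenin there were 4, 0 and 0 counts, and with both 0, 4 and 0. CD38KO had 4, 0 and 14 counts without treatment and 25, 0 and 82 with MSU. No apigenin library had more than 4 counts, while libraries at 0 occurred in every group but WT non-treated. A count of 0 allows up to 0.0811 CPM in replicate 1 and 0.0587 CPM in replicate 3 of WT + MSU + apigenin (3 counts of that library, counting error only).

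The receptor complex was read from a list of 15 partners, 14 of them tested. In the average apigenin comparison 4 were called lower and 1 higher, with a median log2FC of -0.24 against -0.04 over all genes. The 5 called of 14 were a smaller share than the 43.8% called among all genes (26.1% lower and 17.7% higher). Those lower were coactivators or corepressors of nuclear receptors. They were Ncoa3 at -2.10, the histone acetyltransferases Ep300 at -1.78 and Crebbp at -1.36, and Nrip1 at -1.70. Ncoa3 spanned 11.3 to 113 CPM in WT non-treated, which overlapped the 21.7 to 29.7 CPM in WT + apigenin. Under MSU it spanned 62.35 to 78.9 CPM without apigenin and 6.63 to 16.3 CPM with it. Ep300 went from 67.6 to 95.4 CPM in WT non-treated to 19.6 to 23.0 CPM with apigenin. Crebbp went from 28.7 to 34.3 CPM to 9.69 to 15.3 CPM. The one called higher was the chaperone gene Hsp90ab1 at 1.05, which was 0.35 with library totals and was then not called.

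MSU in WT called 1 partner higher, Hif1a at 1.16, which encodes another dimer partner of ARNT, and 0 lower. Among all genes 2.03% were called higher and 1.55% lower. Hif1a was called in 22 of 31 settings, and the median of the 14 was 0.06. CD38KO called Epas1, a relative of Hif1a, lower without treatment at -1.35 and under MSU at -1.79, with Hif1a at -1.17 under MSU. Among all genes CD38KO called 3.96% lower and 0.366% higher without treatment, and 2.65% lower and 0.715% higher under MSU. Epas1 spanned 13.1 to 19.2 CPM in WT non-treated and 5.39 to 7.07 CPM in CD38KO non-treated. Without replicate 2 or 3 of WT + MSU or any 1 of the WT non-treated libraries, Hif1a was not called with MSU, nor was it in CD38KO under MSU without replicate 1 or 3 of CD38KO + MSU or replicate 2 or 3 of WT + MSU. Genes named here and below for MSU and genotype comparisons were chosen after their values were seen. The fibroblast markers given above moved with genotype beside them, and their part was not tested.

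Of 14 other reported targets, 8 were tested, and with apigenin on average 4 were called lower and 0 higher (median log2FC -1.86 against -0.04 over all genes). Among all genes 43.8% were called and 26.1% were lower. By the titles, 2 of the 8 were called lower without MSU (median -0.31) and 4 under MSU (median -2.33), with 0 higher in either. Of all genes 22.2% and 25.8% were called lower in these 2 comparisons. Nfe2l2, the master regulator of antioxidant genes, fell from 432 to 539 CPM in WT non-treated to 38.9 to 133 CPM with apigenin, and from 720 to 912 CPM in WT + MSU to 37.3 to 134 CPM with both, a log2FC of -3.08 on average. Nqo1, a detoxifying enzyme gene that both AhR and the Nfe2l2 product induce, was at -0.63 and not called. The anti-inflammatory cytokine gene Il10 was low throughout, at 0.768 to 1.55 CPM in WT + MSU and 0 in all 3 WT + MSU + apigenin libraries, at least 16-fold lower against 3 counts in a library of that group's mean size. Ereg, which encodes the growth factor epiregulin, was at 8.31 to 23.8 CPM in WT + MSU and at most 0.73 CPM with both. Without MSU, Ereg overlapped, at 0.152 to 0.774 CPM in WT non-treated and 0.146 to 0.616 CPM in WT + apigenin. Il10 was then at 0.997 to 1.87 CPM and 0.220 to 0.291 CPM. Ugt1a6b was called at -3.78, but it shares exons with Ugt1a6a, so its counts may be split, and it ranged from 0.175 to 56.4 CPM within WT non-treated. It was not called without replicate 2 of WT + apigenin or replicate 2 or 3 of WT + MSU + apigenin.

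Ereg was also the 1 target called higher with MSU in WT, from 0.152 to 0.774 CPM without treatment, a call lost without replicate 2 of WT + MSU or any 1 of the WT non-treated libraries. In CD38KO non-treated it was the 1 called lower, at 0 counts in all 3 libraries, at least 11-fold lower against 3 counts in a library of that group's mean size. That call was made in 21 of 30 settings and was lost without any 1 of the CD38KO non-treated libraries or replicate 1 or 2 of WT non-treated. Under MSU the genotype comparison called 0 of the 8 targets. Over all genes, MSU in WT called 3.58%, and CD38KO called 4.32% without treatment and 3.37% under MSU.

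Of 10 genes of the kynurenine pathway, which makes AhR ligands from tryptophan, 4 passed the filter. Ido1, whose enzyme opens the pathway, was at 0 counts in all 18 libraries. With apigenin on average Il4i1, an amino acid oxidase gene that yields AhR-activating metabolites, was called lower at -2.45. Il4i1 spanned 0.816 to 13.3 CPM in WT non-treated, which overlapped the 0.634 to 2.53 CPM in WT + apigenin. It spanned 5.28 to 14.3 CPM in WT + MSU and 0.880 to 3.38 CPM with both. In the same average Kyat1 at 1.35 and Kmo at 1.02, both enzymes acting on kynurenine, were called higher. The median of the 4 was 0.74. Among all genes 43.8% were called, 26.1% lower and 17.7% higher. With library totals Kyat1 was 0.64 and Kmo 0.33 and neither was called, and Kmo was called in 15 of 31 settings, with 8 of the 12 WT libraries each ending the call when left out. By the titles, the average for Kmo joined means that moved in opposite directions. Without MSU its mean fell with apigenin from 6.45 to 3.57 CPM, with overlapping libraries. Under MSU it rose from 0.974 to 7.24 CPM without overlap. Of the 4 genes, apigenin called 0 without MSU, and 2 higher and 1 lower under MSU. The interaction of MSU and apigenin called 1 higher. MSU in WT called Kmo lower at -2.72, from 2.20 to 8.70 CPM to 0.846 to 1.07 CPM, which was lost without any 1 of the WT + MSU libraries or replicate 1 or 2 of WT non-treated. Slc7a5, which encodes a carrier of tryptophan and kynurenine, was called lower in CD38KO without treatment at -1.46 and under MSU at -1.11, the latter lost without replicate 1 of CD38KO + MSU or replicate 2 of WT + MSU. The shares of all genes called in the MSU and genotype comparisons are given above.

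**Figure D4:**
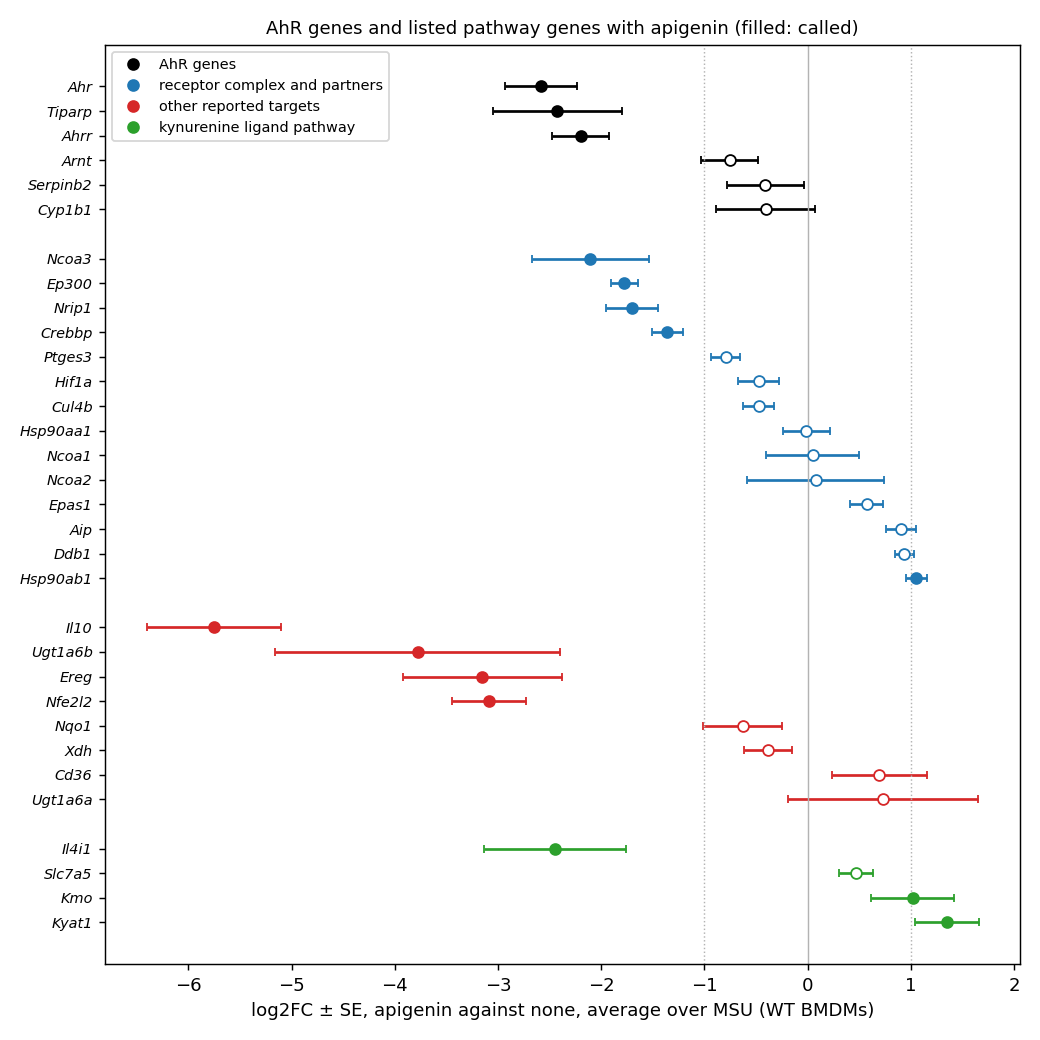
The horizontal axis is the edgeR log2FC of apigenin averaged over MSU in WT BMDMs, with bars of 1 SE, and the tested genes of each list are on the vertical axis. Filled points were called and dotted lines mark a log2FC of 1 in size. The fitted value of Il10 at -5.75 depends on libraries at 0 counts. In the list of other targets the 4 called genes lie at -3.08 or lower and the other 4 between -0.63 and 0.73.

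Likeness of pattern was described by Pearson's r of log2 CPM over the 18 libraries, which share groups and treatments. The pattern of Ahr was most like Kdm6b (0.952), Pgf (0.944) and Dusp8 (0.94). Ahrr was nearest to Vav2 (0.967), Bicral (0.957) and Galnt4 (0.951), and Tiparp to Hvcn1 (0.978), Tent5c (0.972) and 1700017B05Rik (0.971). Cyp1b1 was nearest to Ddah1 (0.97), Tjp1 (0.966) and Steap1 (0.965), and Serpinb2 to Ptx3 (0.978), Upp1 (0.976) and Vcam1 (0.974). Arnt had no gene above 0.806 (Il10rb). Among the 6 themselves, Cyp1b1 with Serpinb2 had an r of 0.815 and Ahr with Tiparp one of 0.813. With group means removed those pairs were at 0.749 and 0.653.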

How the data were processed

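Poly(A)-selected, stranded RNA libraries were made from mouse BMDMs (18 in all). In the deposited table each gene has, per library, a raw count (whole numbers) and an FPKM (corrected by the authors for gene length and depth). The submitters' processing notes list the tools HISAT2, StringTie, edgeR, cutadapt and FastQC with no version. The genome build was not given in the sources used here. Gene IDs matched GENCODE M21 on GRCm38, from which positions were taken. A second deposited table of the authors' log2 ratios was not used. All sample columns were assigned.

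Genes reaching 1 FPKM in 3 or more libraries (12025) were kept and their counts fitted with edgeR 4.0.16 (R 4.3.3, TMM factors of 0.666 to 1.32, 1 quasi-likelihood fit of the 6 groups), and p-values were adjusted by Benjamini-Hochberg over those genes. The SE was the log2FC divided by the square root of F, and intervals were 95%. CPM used the TMM-scaled totals of the tested genes, and depth limits genes near 0 counts. The fit was tested on simulated data. Alternatives were DESeq2 1.42.0, limma 3.58.1 on log2(FPKM + 0.5) or log2(FPKM + 0.1), other scalings and filters, a replicate block, fits of the compared groups alone, the treatment tags, WT replicate 3 only, and each library left out.

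The members, lists and markers were chosen with earlier results of these data known. Named genes were the 7 members, in each list up to 4 called genes with the largest average apigenin change, the 3 genes most like each tested member, and Cd38. Other names were chosen after their values were seen. Titles and treatment tags disagree for the apigenin libraries, and titles, which match the column headings, were used. The replicates are described as biological. No pair of replicates was a copy (chi-square per gene 81.5 to 559). Once group means were removed, libraries of the same number correlated at 0.211 to 0.536 for apigenin without MSU. The range was 0.118 to 0.361 under MSU and 0.153 to 0.506 for MSU with apigenin. Every such pair was over 0.1, the criterion used, which leaves out pairs of unlike number. For apigenin without MSU, WT + apigenin replicate 1 had 0.309 with WT non-treated replicate 2 and 0.261 with replicate 1. WT + apigenin replicate 2 had 0.207 with WT non-treated replicate 1 and 0.211 with replicate 2. There only replicate 3 stood apart, so that pairing by number was not shown for replicates 1 and 2. For MSU in WT the same-number pairs ran from 0.0971 to 0.528 and did not meet the criterion.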

Additional observations from a re-analysis of the deposited data

Results flagged for a closer look

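The response of Serpinb2 to MSU differed between WT cells with and without apigenin, at -3.77 ± 0.77 on the log2 scale (interaction in the edgeR fit, n = 3 libraries per group, edgeR adjusted p = 0.0278). MSU gave a log2FC of 2.92 without apigenin and of -0.85 with it. These values follow the titles of the apigenin libraries. With the treatment tags, which assign MSU the other way among them, the interaction was -2.07 and was not called (edgeR adjusted p = 0.184). Summed fibroblast markers were 574 to 2643 CPM in WT non-treated, 649 to 3827 CPM in WT + MSU, 1526 to 6116 CPM in WT + apigenin and 1829 to 6704 CPM in WT + MSU + apigenin, and their part in the result was not tested.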

How the results depend on the processing

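Of the 6 tested genes, apigenin on average called 5 with library totals and with limma on log2(FPKM + 0.1) and 6 with limma on log2(FPKM + 0.5), against 3. Without MSU it called 5 with the replicate block in the 4 WT groups alone, a fit chosen after seeing the data, and 2 to 4 without 1 library, against 3. CD38KO against WT under MSU called 2 with DESeq2 and with limma on log2(FPKM + 0.5) and 0 to 2 without 1 library, against 1. CD38KO without treatment called 1 in the fit of 2 groups, against 2. MSU called 1 in CD38KO with no filter, with either limma setting and in the fit of 2 groups, and 1 to 2 without 1 library in each genotype, against 2. In WT it called 3 with limma on log2(FPKM + 0.5) and with the replicate block in the WT groups alone, Ahrr being the one added. The interaction of MSU and apigenin called 0 in the fit of its groups alone and with the treatment tags, and 0 to 1 without 1 library, against 1. With WT replicate 3 only, 1 library a group, the counts were 1 for apigenin under MSU, 0 without MSU, 0 for both genotype comparisons, 1 for MSU in CD38KO, 0 in WT and 0 for the interaction with apigenin.

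Values that changed sign were uncalled. With WT replicate 3 only, Arnt was 0.0345 for apigenin under MSU, Cyp1b1 0.36 for MSU in WT and Tiparp -0.37 for CD38KO without treatment. Tiparp in that comparison was -0.0023 with library totals and, with limma, -0.0735 at a pseudocount of 0.5 and -0.0778 at 0.1. Tiparp under MSU was 0.10 with the replicate block, and Cyp1b1 with MSU in WT was 0.0128 with the block in the WT groups alone. With the tags the interaction of MSU and apigenin was -0.10 for Arnt and 0.50 for Cyp1b1. Without 1 library, Cyp1b1 ranged from -0.58 to 0.11 for apigenin without MSU and from -0.29 to 0.16 for MSU in WT, Arnt from -0.37 to 0.12 for MSU in WT and from -0.055 to 0.55 for CD38KO under MSU, and Tiparp from -0.0742 to 0.42 for CD38KO without treatment, from -0.82 to 0.46 under MSU and from -2.84 to 0.29 for the interaction with apigenin. The causes were not tested. Apart from Tiparp with apigenin without MSU, the replicate block in the fit of all groups changed no call of the 6 genes. This held whether or not a comparison met the criterion on replicate numbers. Library totals shifted the median of all genes by -0.69 for apigenin without MSU, -0.71 under MSU, -0.11 for MSU with apigenin and -0.14 and -0.13 for CD38KO without and under MSU, and median scaling shifted apigenin by 0.10.

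Over all genes, calls ranged from 11 to 413 for the interaction of MSU and apigenin, 0 to 99 for MSU with apigenin, 5 to 607 for MSU in WT, 84 to 552 in CD38KO, 70 to 772 for CD38KO without treatment, 14 to 806 under MSU, 0 to 20 for the interaction of MSU and CD38KO, 2428 to 4645 for apigenin without MSU and 3263 to 5857 under MSU.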
